A study of Tupaia belangeri with 2 samples.

Results

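The cells described here passed a rule for progenitors of the embryonic tree shrew brain with few division genes. They carry RNA of at least 2 of FZD10, CNPY1, FST, MASP1, PAX3 and PGM5. They were chosen from the measured counts. A barcode was a member if at least 500 genes and at least 2 of these 6 markers were detected, if NES or VIM (intermediate filament genes of neural progenitors) had at least 1 unique molecular identifier (UMI, which marks a single captured transcript), if DLL3 had none, if the 3 collagen genes COL1A1, COL1A2 and COL3A1 had at most 1 UMI together, and if at most 1 of the 6 division genes MKI67, TOP2A, CENPF, PRC1, NUSAP1 and UBE2C was detected. This left 587 members of 18926 barcodes, 241 of 9241 in embryo 1 and 346 of 9685 in embryo 2. They made up 3.36% of the barcodes with at least 500 genes in embryo 1 (exact 95% binomial interval 2.95 to 3.80%) and 3.92% in embryo 2 (3.53 to 4.35%), with a mean of 3.64% ± 0.399 (SD, n = 2 embryos).

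In the vertebrate embryo the midbrain arises from neural tube cells that express OTX2 and the engrailed genes EN1 and EN2. Its posterior limit, the isthmus, is an organiser that secretes FGF8 and borders cells with WNT1, and PAX2, PAX5 and PAX8 act in its formation. WNT ligands bind frizzled receptors such as FZD10 and stabilise beta-catenin, and the dorsal midbrain is patterned by PAX3 and PAX7. CNPY1 is known as a regulator of FGF receptor signalling at the isthmus, FST (follistatin) binds and blocks activins, MASP1 is a serine protease of the lectin pathway of complement, and PGM5 is a cytoskeleton-associated protein related to phosphoglucomutases.

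The data are droplet transcriptomes (10x Chromium 3′ kit) of the whole brains of 2 Tupaia belangeri embryos at 4 to 5 postconceptional weeks, with 1 library each and no other group, treatment or genotype. According to the labels the dura mater and the blood vessels were taken off before the tissue was dissociated with papain. The sums of all UMIs were 41868023 and 38077767, and the members had medians of 3863 and 3950.5 UMIs and sums of 1031661 and 1541354. The libraries shared 18 barcode sequences, 1 of which belonged to a member, and none was a member in both embryos.

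Members were compared with 3 other sets of cells from the same embryos, each held to the same minimum of genes, the NES or VIM requirement and the collagen limit. The first set had none of the 6 markers, at least 1 UMI of PAX6 or GLI3 (transcription factors of neural progenitors in several brain regions), no DLL3 and at most 1 division gene (174 and 145 cells). The dividing counterparts had at least 2 markers, no DLL3 and at least 2 division genes (524 and 442 cells), and the DLL3-positive counterparts had at least 2 markers and DLL3, a Notch ligand of cells leaving the progenitor state (57 and 128 cells). Levels are UMIs per 1000000 UMIs of a set (CPM), given for embryos 1 and 2 in that order. They are not scaled for transcript length, so they compare cells for 1 gene and not genes with each other. Fold changes are log2 values, members minus the other set, from edgeR's quasi-likelihood test on the UMI sums per embryo, with p-values adjusted by the Benjamini-Hochberg method over all genes tested. All 3 comparisons use the same member sums and are therefore not independent. The embryo was a block in the fit, which takes out differences between the 2 libraries that all sets share. The p-values rest on how unevenly the sets differed in these 2 embryos (3 residual degrees of freedom). Genes of the rule were not tested. The 6 markers were themselves found in these cells, so the p-values compare the selected sets and are not independent evidence for the label.

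Genes of the midbrain that the rule did not use were present in the members. EN2, a homeobox gene of the midbrain and anterior hindbrain, was at 60.1 and 65.5 CPM against 2.69 and 7.07 CPM in the PAX6 or GLI3 progenitors, a log2 fold change of 3.74 (SE 0.37, adjusted p = 5.51e-06). EN1, its relative, was at 25.2 and 24.7 CPM against 2.69 and 7.07 CPM, a log2 fold change of 2.42 (SE 0.47, adjusted p = 0.00408), and was not called with DESeq2 (adjusted p = 0.0895). Both engrailed genes were higher in the members in each embryo. PAX7, a gene of the dorsal midbrain, was at 22.3 and 28.5 CPM against 1.34 and 0 CPM (adjusted p = 4.36e-04). The comparison set held 1 UMI of it, and the ratio of the levels was 34.1 (95% counting interval 5.92 to 1368). OTX2, which marks forebrain and midbrain, was at 47.5 and 53.2 CPM against 22.8 and 15.9 CPM, a log2 fold change of 1.39 (SE 0.38, adjusted p = 0.0427), a call that was lost without the embryo as a block (adjusted p = 0.0954), with DESeq2 (adjusted p = 0.165) and when at least 1000 genes were required (adjusted p = 0.0736). IRX3, an Iroquois homeobox gene, was at 147 and 106 CPM against 14.8 and 23.0 CPM (log2 2.78), and its relative IRX5 was at 216 and 175 CPM against 22.8 and 30.0 CPM (log2 2.91). Of the 7 genes of the midbrain and isthmus list that were tested, 6 were higher and none was lower in the members, with a median log2 fold change of 2.70 against 0.01 over all 6027 genes tested. The list held 22 genes, of which 18 were named in the annotation, and the others of these did not pass the filter on low counts. A gene could pass it on its level in the marker-positive sets alone, so the count and the median can lean towards genes high there. The same holds for the other lists. Over all genes, 4.66% were called, 2.56% higher and 2.11% lower. The sixth call was LHX1 (log2 1.05, adjusted p = 0.0396), which fell away with at least 3 markers (log2 -0.15).

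The share of cells with a UMI showed the same order. EN2 was detected in 20.7 and 21.4% of members and in 1.75 and 2.02% of cortical neuron-type cells (at least 2 of the genes NEUROD2, NEUROD6, TBR1 and FEZF2), which served as a background for free RNA in the droplets. The medians of the latter were 5129.5 and 4305 UMIs, so they were the more deeply sequenced set. After each cell had been thinned to 2000 UMIs the shares were 11.8 and 13.2% of members and 1.53 and 0.298% of cortical neuron-type cells. PAX7 was detected in 8.30 and 11.6% of members and 0.25 and 0.288% of cortical neuron-type cells. For both genes the members lay above the background in each embryo.

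The defining genes of the isthmic organiser were at or near 0, apart from FGF17 in embryo 2. PAX2, PAX8, LMX1B and GBX2 had no UMI in the members, which allows up to 2.91 CPM in embryo 1 and 1.95 CPM in embryo 2 (3 counts of each total). PAX5 had 1 and 0 UMIs, WNT1 1 and 0, FGF8 1 and 2 and FGF17 0 and 9, the last of these above 3 counts. These genes were rare in the whole series too, with 116 and 93 UMIs of FGF8 over all barcodes and 2 and 0 of WNT1. The midbrain side of the working name midbrain or isthmus-type thus rests on EN1, EN2 and PAX7, and the isthmus side is not met by organiser genes. EN2 is also a gene of the anterior hindbrain, and the OTX2 call was lost in several alternatives. Midbrain and anterior hindbrain were therefore not told apart. The members also differed among themselves, with EN1 lower in those without CNPY1, as given below.

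Hindbrain genes were low. From the floor plate list, 2 of 3 genes tested were higher than in the PAX6 or GLI3 progenitors, beside 2.56% of all genes. The 9 hindbrain genes of the annotation, among them HOXA2, HOXA3, HOXB4 and EGR2, added up to 9.69 and 6.49 CPM in the members. Of the 10 genes of the floor plate and ventral midbrain, NKX6-2 was at 11.6 and 16.9 CPM against 0 and 1.77 CPM in those progenitors (adjusted p = 0.0124) and SPON1, a matrix protein of the floor plate, at 47.5 and 30.5 CPM against 6.72 and 5.30 CPM (log2 2.70). FOXA2 had 1 and 0 UMIs and LMX1A none, so these defining genes of the floor plate were at or near 0. The list held 12 genes, and not all were named in the annotation. Those named added up to 216 and 228 CPM in the members, 164 and 189 CPM in those progenitors and 160 and 213 CPM in cortical neuron-type cells. Diencephalon genes were not low. The 10 of them added up to 142 and 132 CPM in the members and 114 and 131 CPM in the PAX6 or GLI3 progenitors. Of 2 tested, none was called against these progenitors, and LHX9 was higher than in the dividing cells.

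**Figure D1:**
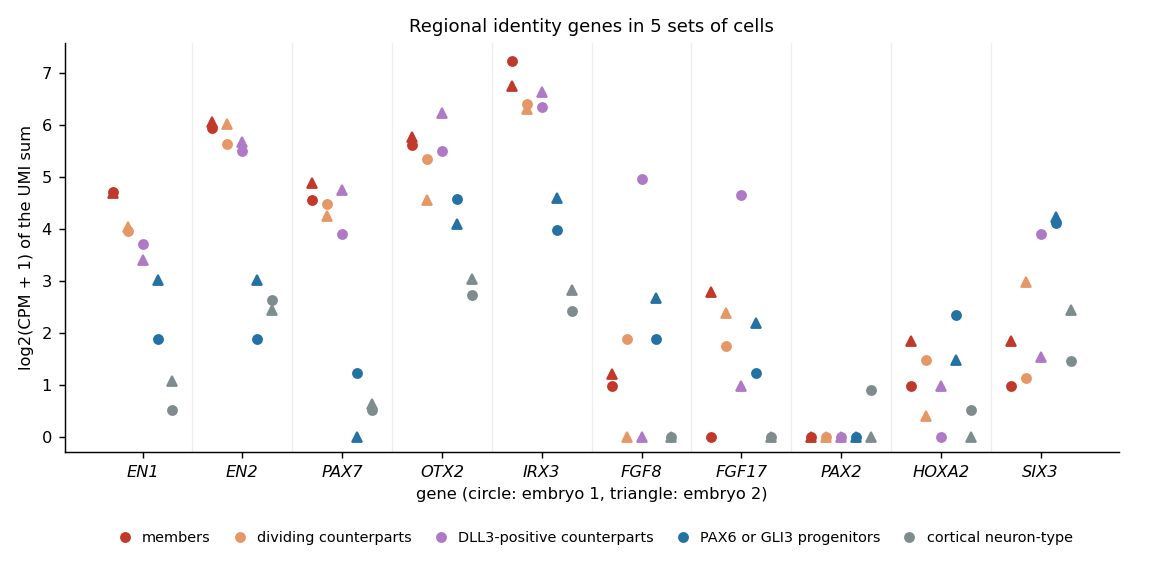
Each point is the level of a regional gene, as log2(CPM + 1) of the UMI sum, in 1 of 5 sets of cells (colours) of embryo 1 (circles) or embryo 2 (triangles). EN1, EN2, PAX7 and IRX3 lie higher in the members than in the PAX6 or GLI3 progenitors in both embryos, and PAX2 lies at 0 in the members.

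Of the 6 markers that chose the members, FZD10 was found in 60.6 and 64.5% of members at 247 and 237 CPM and PAX3 in 62.7 and 58.4% at 215 and 213 CPM. FST was found in 51.5 and 51.7%, CNPY1 in 32.8 and 35.3%, MASP1 in 33.2 and 32.7% and PGM5 in 9.54 and 11.0%. The markers differed in how often cortical neuron-type cells had them. In cortical neuron-type cells FZD10 was found in 2.50 and 2.31% and PAX3 in 2.00 and 1.44%, against 13.2 and 12.1% for FST and 14.0 and 12.7% for MASP1. The 6 markers added up to 132 and 100 CPM in these cells and to 15.1 and 288 CPM in microglia-type cells (at least 3 microglia genes, 30 and 34 cells). Whether this was free RNA or expression in those cells was not tested. FZD10 with PAX3 was the most frequent pair, in 216 of 587 members (36.8%), followed by FST with PAX3 in 163 (27.8%) and FZD10 with FST in 157 (26.7%). Just 2 markers were detected in 61.8 and 60.4% of members, 3 markers in 28.6 and 26.9%, and 1 member had all 6. These values follow from the selection and were not tested.

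The cells just outside the threshold, with 1 marker, were close to the members for some genes. EN2 was at 31.6 and 58.3 CPM in cells with 1 marker (534 and 604 cells), 55.3 and 76.9 CPM with 2, 71.4 and 58.1 CPM with 3 and 58.7 and 35.9 CPM with 4 or more. STMN2, a cytoskeletal gene of young neurons, was at 1709 and 1911 CPM with 1 marker, 848 and 1009 with 2, 239 and 512 with 3 and 293 and 350.0 with 4 or more. TFAP2B, a transcription factor gene of midbrain neuron lineages, was at 329 and 397 CPM, 286 and 367 CPM, 64.3 and 165 CPM and 8.38 and 126 CPM in the same order. STMN2 and TFAP2B were lower with 3 markers than with 2 in both embryos, and EN2 was higher in embryo 1 and lower in embryo 2. The median depth was 3674 and 3565.5 UMIs with 1 marker, 3835 and 3786 with 2 and 4003 and 4598.5 with 4 or more.

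Genes of WNT signalling were among those that separated the members from the PAX6 or GLI3 progenitors. WLS, which carries WNT ligands to the cell surface, was at 237 and 227 CPM against 36.3 and 28.3 CPM, a log2 fold change of 2.85 (SE 0.21, adjusted p = 1.58e-07). Of the receptors and co-receptors, FZD2, FZD3, LRP5, LRP6 and RYK were tested and not called, with log2 values between -0.26 and 0.78. WNT5A, the ligand of the list that passed the filter on low counts, was at 28.1 and 48.0 CPM against 28.2 and 49.5 CPM. CTNNB1, which encodes beta-catenin, was at 519.6 and 524 CPM against 242 and 265 CPM (log2 1.06, adjusted p = 7.04e-05). The feedback genes AXIN2 and ZNRF3, which WNT signalling induces and which dampen it, were at 40.7 and 46.1 CPM and 49.4 and 57.1 CPM against 12.1 and 12.4 CPM and 13.4 and 21.2 CPM (log2 1.84 and 1.67, adjusted p = 0.00332 and 0.00534). CCND1, a cyclin gene and known WNT target, was at 485 and 533 CPM against 234 and 314 CPM (log2 0.92).

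Secreted WNT modulators differed in opposite directions. SFRP1, which binds WNT ligands outside the cell, was at 276 and 259 CPM in the members against 2116 and 2021 CPM, a log2 fold change of -2.93 (SE 0.17, adjusted p = 2.31e-08). DKK3, of the dickkopf family, was at 205 and 199 CPM against 37.6 and 45.9 CPM, a log2 fold change of 2.29 (SE 0.18, adjusted p = 2.26e-07). SFRP1 was detected in 33.6 and 23.4% of members and 85.6 and 73.8% of the PAX6 or GLI3 progenitors. Of 18 genes of the WNT list that were tested, 5 were higher, 1 was lower and 12 were not called, with a median log2 fold change of 0.64, beside the 4.66% of all genes called. WLS was counted with the roof plate and dorsal genes, where it was the call among 5 genes tested.

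Of 10 Notch pathway genes tested, 3 were higher in the members and none was lower (median log2 1.29), beside the 2.56% of all genes called higher. HES4, a transcriptional repressor downstream of Notch, was at 79.5 and 82.4 CPM against 18.8 and 38.9 CPM (log2 1.54, adjusted p = 4.36e-04). HES5, of the same family, had 43 UMIs in the members at 20.4 and 14.3 CPM and 1 UMI in the comparison set, a ratio of 21.9 (95% counting interval 3.73 to 885) with adjusted p = 0.00286. JAG1, a Notch ligand, was at 25.2 and 25.3 CPM against 12.1 and 7.07 CPM (log2 1.42, adjusted p = 0.0427), and its call was lost without the embryo as a block (adjusted p = 0.170) and with DESeq2 (adjusted p = 0.399). HES5 too was not called with DESeq2 (adjusted p = 0.0908). NOTCH1, at 28.1 and 29.8 CPM against 12.1 and 14.1 CPM, just missed the threshold (adjusted p = 0.0513).

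**Figure D2:**
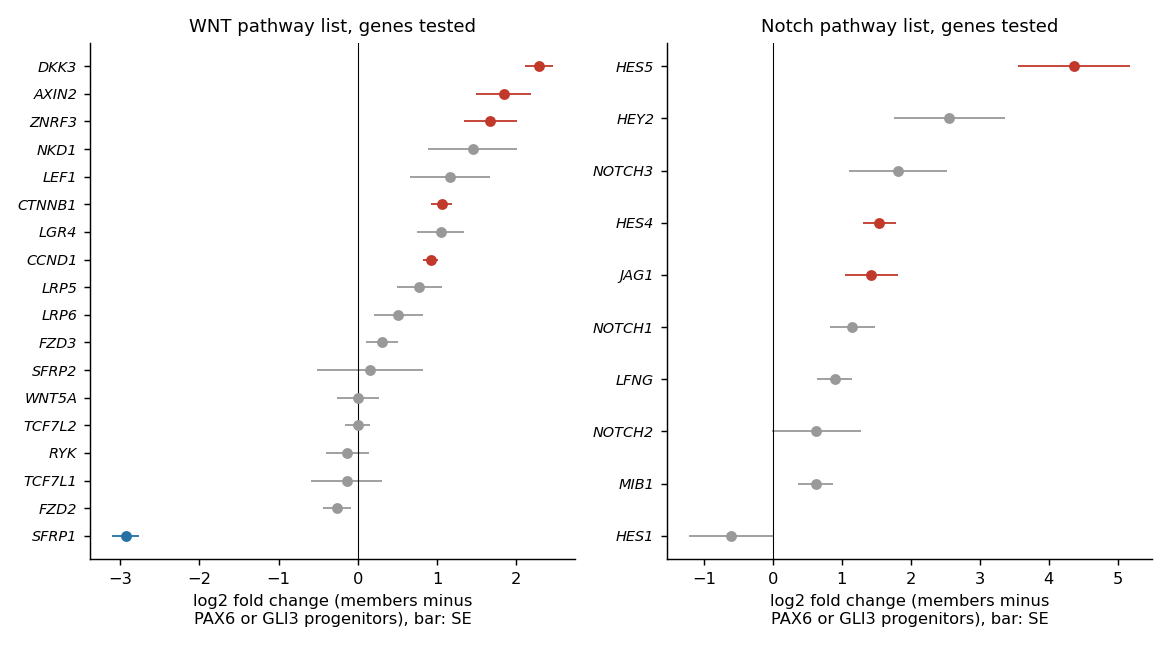
Points are log2 fold changes (members minus PAX6 or GLI3 progenitors) of the tested genes of the WNT and Notch lists, and bars are standard errors. Genes called higher are red, the gene called lower is blue and genes not called are grey, with SFRP1 at -2.93 as the lowest WNT gene.

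Glial progenitor genes differed in both directions. PTN, a growth factor of radial glia, was at 2200.3 and 1775 CPM against 767 and 788 CPM, a log2 fold change of 1.37 (SE 0.08, adjusted p = 2.64e-08). SPARCL1, a matrix protein of astroglia and vessels, was at 285 and 134 CPM against 37.6 and 26.5 CPM, a log2 fold change of 2.70 (SE 0.20, adjusted p = 1.78e-07), and was detected in 17.0 and 11.3% of members. The 7 endothelial and mural genes of the annotation added up to 10.7 and 9.73 CPM in the members, with CDH5 at 0 in embryo 1 and embryo 2. DBI, a small acyl-CoA binding protein, was at 1239 and 1396 CPM against 1863 and 2404 CPM (log2 -0.67, adjusted p = 2.03e-04), but it was higher in the members than in the wider set of cells without markers that need not have PAX6 or GLI3 (log2 0.65). LIX1 was at 10.7 and 9.08 CPM against 47.0 and 42.4 CPM (log2 -2.15). FABP7 and SLC1A3, textbook radial glia genes, were not called (log2 -0.27 and 0.37, adjusted p = 0.376 and 0.487). Of 15 radial glia genes tested, 3 were higher (PTN, HES5 and MSI1, an RNA-binding protein), 3 were lower (SFRP1, DBI and LIX1) and 9 were not called. Among all genes tested, 2.56% were called higher and 2.11% lower.

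Among all genes outside the lists, those with the largest differences came from several families. TESC, a calcium-binding protein, was at 33.9 and 29.8 CPM against 1.34 and 0 CPM, with 81 UMIs against 1 and a ratio of 41.3 (95% counting interval 7.20 to 1649). SULF1, an enzyme that trims heparan sulfate, was at 46.5 and 41.5 CPM against 1.34 and 3.53 CPM, with 112 UMIs against 3 and a ratio of 19.0 (95% counting interval 6.34 to 93.6). A gene that the annotation names HS3SB was at 101 and 166 CPM against 17.5 and 7.07 CPM (log2 3.34), and CRYM, which binds thyroid hormone, at 87.2 and 78.5 CPM against 9.40 and 8.83 CPM (log2 3.13). The named gene CAPS2 was at 22.3 and 32.4 CPM against 0 and 8.83 CPM (log2 2.84, adjusted p = 0.00572). A higher level in both embryos was a condition for naming these genes.

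The genes with the largest differences in the other direction included forebrain regulators. FEZF2, a zinc finger gene of the forebrain, was at 20.4 and 13.0 CPM against 159 and 150.2 CPM (log2 -3.26), and DLX5, a homeobox gene of forebrain inhibitory neurons, at 5.82 and 11.0 CPM against 61.8 and 79.5 CPM (log2 -3.04). DMRTA1, a transcription factor gene, was at 5.82 and 5.19 CPM against 51.1 and 91.9 CPM (log2 -3.66). EFNB2, an ephrin ligand, and ALCAM, an adhesion molecule, were at 11.6 and 6.49 CPM and 6.79 and 3.89 CPM against 101 and 118 CPM and 45.7 and 28.3 CPM (log2 -3.63 and -2.75). A lower level in both embryos was a condition for naming these 5 genes. FBXO32, a ubiquitin ligase component, ADAMTS19, a secreted protease, and ZBTB16, a zinc finger gene, had log2 values of -4.81, -4.27 and -2.31, with adjusted p = 1.17e-06, 1.15e-05 and 0.00541. JPH1, which joins the plasma membrane to the endoplasmic reticulum, had 2 UMIs in the members and 34 in the comparison set, a ratio of 33.4 (95% counting interval 8.56 to 287).

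**Figure D3:**
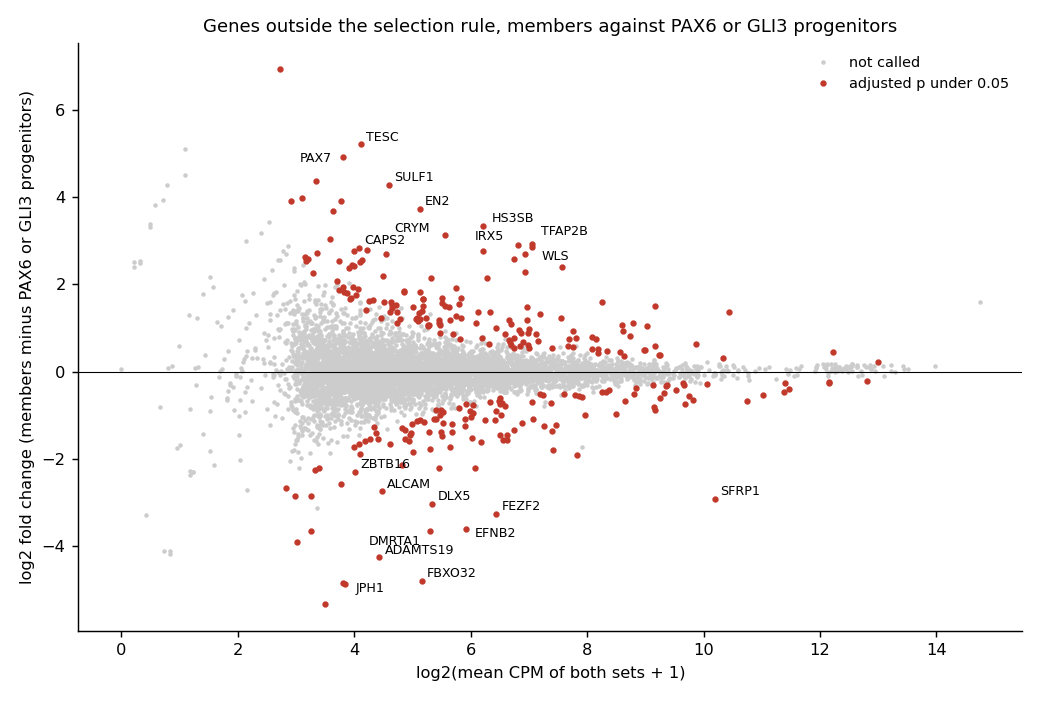
Each point is a gene outside the rule, with its log2 fold change (members minus PAX6 or GLI3 progenitors) against log2(mean CPM of both sets + 1). The 281 called genes of 6027 tested are red, the 20 genes named by the rule on size are labelled, and SFRP1 is the called gene with a large difference at a high level.

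Neuronal RNA was lower in the members than in the PAX6 or GLI3 progenitors. STMN2 was at 618 and 769 CPM against 1087 and 1134 CPM (log2 -0.66, adjusted p = 1.68e-04), and DCX and INA, cytoskeletal genes of young neurons, had log2 values of -1.35 and -1.61. GAD2, which makes the transmitter GABA, was at 65.9 and 122 CPM against 206 and 279 CPM (log2 -1.37). Of 6 neuron genes tested, 3 were lower and none was higher, beside 2.11% of all genes called lower. At least 1 of the 7 neuron genes of the annotation was detected in 51.0 and 56.9% of members. In the comparison cells the shares were 54.0 and 54.5%, and the name progenitors follows from the rule for both sets. Cells with at least 2 neuron genes made up 17.4 and 22.5% of members and 27.6 and 29.0% of the comparison cells. Without them STMN2 stood at log2 0.20 (adjusted p = 0.565) and GAD2 at log2 -0.27 (adjusted p = 0.695), so neither call held.

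TFAP2B went the other way. It was at 194 and 274 CPM in the members against 26.9 and 35.3 CPM, a log2 fold change of 2.92 (SE 0.17, adjusted p = 2.31e-08), although only 10.8 and 14.5% of members had a UMI of it. Without cells that had at least 2 neuron genes the log2 fold change was 3.53 (adjusted p = 1.27e-08). A wider comparison set dropped the requirement for PAX6 or GLI3 (1502 and 1672 cells). It was rich in neuronal RNA, with STMN2 at 2079.8 and 2468 CPM in 72.4 and 79.8% of its cells, so it is not a set of progenitors alone. Against this set the log2 fold change of TFAP2B was -0.15 (adjusted p = 0.267). In the same wider comparison EN2 was higher (log2 1.60), PAX7 as well (log2 2.27), SFRP1 lower (log2 -1.25), and OTX2 was not called (log2 0.44, adjusted p = 0.176).

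The members were not uniform, and the engrailed genes went with CNPY1. EN2 was at 102 and 114 CPM in members with CNPY1 (79 and 122 cells) and at 37.5 and 35.6 CPM in those without (162 and 224 cells). EN1 was at 65.9 and 47.7 CPM with CNPY1 and 3.0 and 10.5 CPM without. The exact 95% Poisson intervals did not overlap for either gene in either embryo, and median depths were 3813 and 4163 UMIs with CNPY1 and 3914 and 3817.5 without. OTX2 had 52.1 and 56.2 CPM with CNPY1 and 45.0 and 51.3 CPM without, values whose intervals overlapped. PAX7 went with its relative PAX3, at 32.8 and 37.2 CPM against 5.10 and 16.8 CPM without PAX3, and the intervals were apart in embryo 1 and overlapped in embryo 2.

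Members with MASP1 had higher CPM of SLC1A3 and SFRP1 in both embryos and lower CPM of EN2 in embryo 2. SLC1A3, a glutamate transporter of radial glia and astrocytes, was at 211 and 194 CPM with MASP1 and 63.7 and 20.2 CPM without. EN2 was at 44.0 and 21.8 CPM with MASP1 and 68.0 and 89.8 CPM without, apart in embryo 2 and overlapping in embryo 1. SFRP1 was at 437 and 459.7 CPM with MASP1 against 197 and 147 CPM without, and at 152 and 169 CPM with FZD10 against 477 and 434 CPM without. The SLC1A3 and SFRP1 intervals were apart in both embryos. The share of cells with SFRP1 in embryo 1 was not higher with MASP1 (32.5%) than without (34.2%). The intervals treat UMIs of the same cell as independent. TFAP2B was at 37.1 and 108 CPM with FST and 365 and 439 CPM without, also apart in both embryos. These splits were chosen after their values were seen, rest on counts of 1 set of cells per embryo and were not tested. A marker at 0 in a cell may have been missed at this depth.

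**Figure D4:**
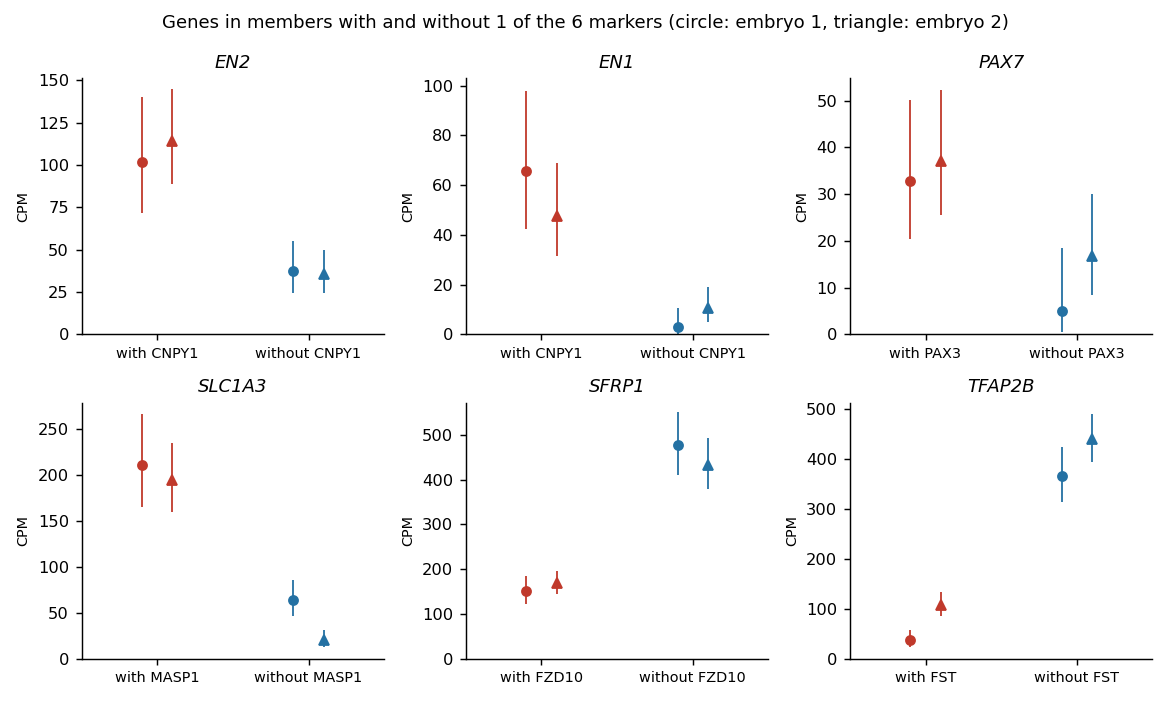
Points are CPM values of 6 genes in members with and without 1 marker, in embryo 1 and embryo 2, and bars are exact 95% Poisson intervals, which cover counting error only. EN2 and EN1 are higher with CNPY1, PAX7 with PAX3 and SLC1A3 with MASP1, while SFRP1 is lower with FZD10 and TFAP2B is lower with FST.

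Among cells with at least 2 of the markers, the dividing cells were the most frequent state in both embryos. Of 822 such cells in embryo 1 and 916 in embryo 2, 63.7 and 48.3% had at least 2 division genes, 29.3 and 37.8% were the members, and 6.93 and 14.0% had DLL3. Of the members, 42.3 and 39.6% had 1 division gene, and the 20 S phase genes added up to 1746 and 1772 CPM in them. The sums were 1671 and 2021 CPM in the PAX6 or GLI3 progenitors and 1993 and 2299.6 CPM in the dividing cells. In cortical neuron-type cells they were 545 and 638 CPM. The 20 genes include the cyclin genes CCND1 and CCND2. The mean share of members was 33.5% ± 5.98 (SD, n = 2 embryos). In cells with PAX6 or GLI3 and no marker, the share with at most 1 division gene was 40.9 and 39.5%. The member share had exact 95% binomial intervals, which cover counting error only, of 26.2 to 32.6% and 34.6 to 41.0%, and with 1 library each the embryos were not tested against each other. With cells thinned to 2000 UMIs the mean member share was 43.6% ± 2.13 (SD, n = 2 embryos).

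The regional genes hardly separated the members from their dividing counterparts. EN2 was at 48.7 and 63.6 CPM in the dividing cells (log2 0.09, adjusted p = 0.739), PAX7 at 21.2 and 17.9 CPM (log2 0.33, adjusted p = 0.402) and OTX2 at 39.5 and 22.4 CPM (log2 0.66, adjusted p = 0.0672). Of 7 midbrain and isthmus genes tested, 2 were higher in the members, IRX3 (log2 0.58) and LHX1 (log2 2.02), and none was lower. Over all 6029 genes tested, 20.7% were called, 7.71% higher and 13% lower in the members. The median depth was 5252 and 5243.5 UMIs in the dividing cells.

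Of 17 radial glia genes tested against the dividing cells, 6 were higher in the members, 2 were lower (SFRP1, log2 -0.50, and LIX1, log2 -0.98, both reversed with at least 3 markers) and 9 were not called. SLC1A3 was at 112 and 82.4 CPM against 31.9 and 31.8 CPM, a log2 fold change of 1.53 (SE 0.20, adjusted p = 1.95e-05). TNC, a matrix protein of radial glia, was at 37.8 and 56.4 CPM against 12.7 and 17.5 CPM (log2 1.58), FABP7 at 456 and 496 CPM against 169 and 265 CPM (log2 1.08) and PTN at 1442 and 1242 CPM in the dividing cells (log2 0.50). SPARCL1 (log2 2.41), SULF1 (log2 2.27), CLU, a secreted chaperone (log2 2.32), and KLH35 (log2 2.63) were among the 8 named genes with the largest differences.

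STMN2 was at 618 and 769 CPM in the members against 217 and 207 CPM in the dividing cells, a log2 fold change of 1.65 (SE 0.09, adjusted p = 2.94e-10), and 5 of 6 neuron genes tested were higher. TFAP2B was at 194 and 274 CPM against 22.7 and 27.3 CPM, a log2 fold change of 3.15 (SE 0.13, adjusted p = 6.86e-12), and its relative TFAP2D at 33.0 and 29.2 CPM against 5.01 and 0.649 CPM (log2 3.36). Of 7 genes of midbrain neuron lineages tested, 6 were higher, among them GAD2 (log2 1.30), EBF3 (log2 1.87), a transcription factor of young neurons, and SLC17A6, a glutamate transporter of excitatory neurons (log2 2.41). Without cells with at least 2 neuron genes, which were 10.9 and 11.8% of the dividing cells, STMN2 stayed higher (log2 1.45) and TFAP2B too (log2 3.37). With at least 3 markers the calls of SLC17A6 (log2 0.15, adjusted p = 0.969) and TFAP2D (log2 2.31, adjusted p = 0.182) were among those lost. Of 57 named and listed genes called in this comparison, 24 lost their call and 3 turned with at least 3 markers, and 29 lost it with DESeq2.

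The genes lower in the members than in the dividing cells were led by mitotic genes, which follows from the rule and is given as a description. KIF20A and ESPL1 had no UMI in the members and 212 and 171 UMIs in the dividing cells, at least 28.1-fold and 22.7-fold lower when set against the limit of 3 counts over both embryos. CCNB2, a mitotic cyclin, was at 4.85 and 2.60 CPM against 479.5 and 508 CPM, and DLGAP5, CCNA2 and AURKB had log2 values of -7.01, -6.71 and -6.36. DEPDC1B had 1 UMI in the members and NEK2 had 2, with ratios of 188 (95% counting interval 33.7 to 7459.8) and 108 (95% counting interval 29.9 to 897). S phase genes were not in the rule but go with it. Of 17 tested, 10 were lower, from MCM7 (log2 -0.38) to CLSPN, a replication checkpoint gene (log2 -3.15).

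Of 17 radial glia genes tested against the DLL3-positive counterparts, 6 were higher in the members, none was lower and 11 were not called, beside 9.64% of 6029 genes called overall (3.12% higher and 6.52% lower). PTN was at 786 and 831 CPM in the DLL3-positive cells, a log2 fold change of 1.19 (SE 0.08, adjusted p = 1.94e-08). SLC1A3 was at 49.9 and 23.8 CPM (log2 1.43), SOX9, a transcription factor of glial progenitors, at 16.0 and 22.8 CPM (log2 1.21) and TNC at 12 and 9.52 CPM (log2 2.16). SULF1 (log2 2.92), GNAI1, a G protein subunit (log2 2.99), LUZP2 (log2 2.85) and TFAP2D (log2 2.82) were among the 8 named genes with the largest differences. None of 10 Notch genes tested was called, nor were EN2 (log2 0.34) and PAX7 (log2 0.17).

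The DLL3-positive cells were not limited in division genes, and 49.1 and 39.1% of them had at least 2. Their higher levels of CCNB2 (log2 -6.13 for members minus DLL3-positive cells), DLGAP5, KIF4A, CCNA2 and SPAG5 thus go with the rule. DEPDC1B, NEK2 and TTC38, with 1 to 3 UMIs in the members, had ratios of 87.9 (95% counting interval 15.1 to 3537), 48.1 (95% counting interval 12.7 to 407) and 45.9 (95% counting interval 15.2 to 227). When the cells in the highest 5% of UMIs were left out, the calls in this comparison fell from 188 higher and 393 lower to 125 and 213.

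Erythroid genes were called in both of these comparisons and rest on few cells. AHSP, a haemoglobin chaperone, was at 318 and 179.7 CPM in the members, 56.3 and 16.2 CPM in the dividing cells and 5.99 and 3.81 CPM in the DLL3-positive cells, and HBB was at 33161 and 17374 CPM in the members. In each embryo 4 members had at least 1% haemoglobin UMIs, whereas the median over members was 0.240 and 0.0729%. Without cells over that limit AHSP stood at log2 0.50 against the dividing cells (adjusted p = 0.587) and at log2 0.05 against the DLL3-positive cells (adjusted p = 0.981). ALAS2, HBA2 and HBB were the other erythroid genes among the named ones, and the 10 erythroid genes added up to 33858 and 17870 CPM in the members, 59147 and 779 CPM in the PAX6 or GLI3 progenitors, 16504 and 4814 CPM in the dividing cells and 14101 and 610.3 CPM in the DLL3-positive cells. HBZ and SLC4A1 were at 0 in the members.

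**Figure D5:**
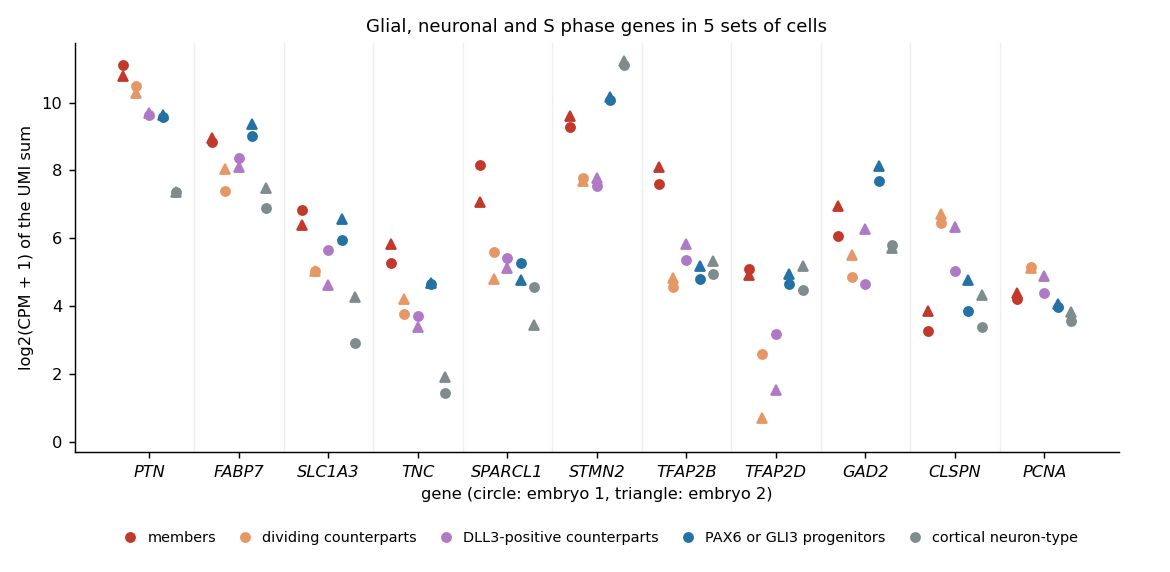
Each point is the level of a gene, as log2(CPM + 1) of the UMI sum, in 1 of 5 sets of cells (colours) of embryo 1 (circles) or embryo 2 (triangles). PTN, SLC1A3, TNC and SPARCL1 lie higher in the members than in the dividing and DLL3-positive counterparts, as do STMN2, TFAP2B and TFAP2D, and CLSPN lies lower.

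Pathways of the other markers showed few differences. Of 6 FGF pathway genes tested, none was called in any of the 3 comparisons. Of 8 activin and BMP genes, none was called against the PAX6 or GLI3 progenitors, and FSTL5, a relative of follistatin, was higher than in the dividing cells (log2 0.55) and the DLL3-positive cells (log2 0.74). Of the WNT genes, WNT5A and DKK3 were higher than in the dividing cells (log2 0.98 and 0.95) and the DLL3-positive cells (log2 1.36 and 1.16). ACVR2B, an activin receptor, was higher than in the dividing cells (log2 0.41). INHBA, which encodes an activin subunit, had no UMI in the members. The 9 further genes of the lectin complement pathway had 11 and 12 UMIs in all, and none passed the filter on low counts.

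Markers of several other cell types were low in the members, while erythroid genes, given above, and TTR were not. The 6 choroid plexus genes added up to 195 and 152 CPM in 29.9 and 31.8% of members, of which TTR, a thyroid hormone carrier made in the choroid plexus, gave 144 and 94.7 CPM and OTX2 47.5 and 53.2 CPM, with AQP1 at 0. Their part in the results was not tested. The 5 microglia genes added up to 20.4 and 1.30 CPM, the 6 meningeal genes to 3.88 and 0.649 CPM and the 4 neural crest genes to 1.94 and 5.19 CPM, with SOX10 and FOXD3 at 0. The 10 skeletal muscle genes added up to 33.0 and 27.2 CPM, of which TNNT1 gave 30.0 and 22.7 CPM, and MYOD1 and MYOG were at 0.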

How the data were processed

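The authors deposited raw UMI counts per gene model and barcode for 2 embryos. Per the labels' processing notes these came from Cell Ranger 3.1.0, with Seurat 3 and fastp also named. Counts of the 23975 gene models were summed to 18543 names. Doublets were not removed, and cells in the highest 5% of UMIs were left out as an alternative. UMI sums per embryo and set (8 sums, 3 residual degrees of freedom) were fitted in edgeR 4.0.16 (R 4.3.3; TMM factors, filter on low counts, quasi-likelihood test) with the embryo as a block, because all sets come from the same animals, and genes with adjusted p under 0.05 were called. DESeq2 1.42.0 was an alternative. Data were simulated from these sums with the same spread for every gene (coefficient of variation 0.08) and no differences between embryos beyond depth. The 200 genes changed 4-fold were taken from those not low in counts. They were recovered at 90.5% against the PAX6 or GLI3 progenitors, 98.5% against the dividing cells and 93.0% against the DLL3-positive cells, and 3.72, 4.83 and 6.53% of the calls were false. With these settings the shares do not measure the false calls in the real data.

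Named genes are those with the largest called differences, 10 in each direction against the PAX6 or GLI3 progenitors and 8 against each counterpart, together with members of the gene lists. Those chosen by size had at least 20 CPM in the higher set in both embryos, differed the same way in both embryos and had a gene name. The members, lists and rule were chosen with earlier results of these data known. The total counts were 41868023 and 38077767, and intervals and floors (3 counts) cover counting error only. Thinning to 2000 UMIs used a fixed seed. SOX2, TUBB3 and GAP43 carry no name in the annotation and were not analysed here. Some genes of the telencephalon list are not reported here.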

Additional observations from a re-analysis of the deposited data

How the results depend on the processing

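The mean share of members (3.64%, 3.36 to 3.92% when either embryo is left out) was 4.24% with at least 1000 genes, 1.42% with at least 3 markers and 2.62% after thinning. It was 4.51% without the NES or VIM requirement and 5.75% without cells with at least 2 neuron genes. Without FZD10, CNPY1, FST, MASP1 or PAX3 among the markers it was 2.48, 2.95, 2.77, 3.13 and 2.56%. With at least 1000 genes the members fell from 587 to 504, and without cells with at least 2 neuron genes to 467. Both settings also took cells out of the total, so their higher shares do not mean more members. After thinning, 43.6% of marker-positive cells had at most 1 division gene and no DLL3, and 5.23% had DLL3; leaving out either embryo gave 29.3 to 37.8% and 6.93 to 14.0%, and 48.3 to 63.7% dividing.

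Without the replicate block the counts of genes called higher and lower in the members were 83 and 67 against the PAX6 or GLI3 progenitors (154 and 127 with the block), 235 and 490 against the dividing cells (465 and 781) and 93 and 252 against the DLL3-positive cells (188 and 393). With DESeq2 they were 64 and 64, 120 and 353, and 59 and 227. All calls made without the block or with DESeq2 were among those of the blocked test. With at least 3 markers they were 189 and 367 against the dividing and 77 and 232 against the DLL3-positive cells. After thinning, 446 were lower against the dividing cells, and 76 were higher and 126 lower against the DLL3-positive cells. Without the highest 5% of UMIs the latter were 125 and 213. Against the wider, neuron-rich set without markers, with or without PAX6 or GLI3, they were 883 and 938. With either embryo left out no residual degrees of freedom remained, so there was a log2 value and no test.

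Directions turned as follows, and the cause was not tested. Against that wider set, CCND2 had log2 0.52, DBI 0.65, HBE1 -4.58, LHX1 -0.47 and TFAP2B -0.15. With at least 3 markers, LHX1 had -0.15 against the PAX6 or GLI3 progenitors, HBG1 0.32, LIX1 0.019 and SFRP1 0.40 against the dividing cells, and CCND1 0.10 against the DLL3-positive cells. Without cells with at least 2 neuron genes, STMN2 had 0.20 against the PAX6 or GLI3 progenitors. Without the highest 5% of UMIs, HBA1 had -1.42, HBA2 -1.39 and HBQ1 -0.38 against the dividing cells, and AHSP -0.10, HBA2 -0.43, MCM5 0.68 and SPON1 -0.28 against the DLL3-positive cells. After thinning, HBA1 had -0.0074 and MCM5 0.59 in the same comparisons, and with either embryo left out HBG1 had -2.77 to 0.66 against the dividing cells. The depth limits genes near 3 counts per set, such as those of the isthmic organiser.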

Other observations

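FGF8, a ligand of the isthmic organiser, was at or near 0 in the members but present in a few DLL3-positive counterparts of embryo 1. FGF8 had 15 UMIs in 2 of the 57 DLL3-positive cells of embryo 1 (29.9 CPM) and none in the 128 of embryo 2.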
